A study of Caenorhabditis elegans with 12 samples.

Results

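The proline and P5C metabolism genes are 6 genes of *C. elegans*: *alh-6*, *prdh-1*, *alh-13*, *oatr-1*, *pycr-1* and *pycr-4*. They were chosen by name, for the enzymes they encode, from the 46726 genes of the expression table. Earlier results of these data were known when the choice was made. The study had also reported higher expression of enzymes that lower P5C in these mutants. Counts of called genes among the 6 are therefore not counts on a list chosen blind. Each symbol matched 1 gene identifier of the table through the WBcel235 annotation. All 6 were at 1 FPKM or more in all 12 libraries, so each was tested in every comparison. FPKM corrects fragment numbers for gene length and for the size of the library, and is used here for every level.

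Proline is broken down in mitochondria, where PRDH-1, proline dehydrogenase, oxidizes it to pyrroline-5-carboxylate (P5C) and ALH-6, P5C dehydrogenase, oxidizes P5C to glutamate. Proline is made in the other direction, since P5C synthase (ALH-13) forms P5C from glutamate and P5C reductases (PYCR-1 and PYCR-4) reduce P5C to proline. OATR-1, ornithine aminotransferase, connects ornithine with P5C and so ties this route to arginine. P5C is thus the shared intermediate of all of these enzymes, and it is reactive and toxic when it builds up.

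RNA came from whole worms in 4 groups of 3 libraries, *alh-6* mutants and WT as day 3 adults, 120 hr after L1 larvae were placed on food, and *alh-6* mutants and WT as L4 larvae, 48 hr after it. The mutants carried *lax105*, a loss-of-function allele of *alh-6* that is present in every tissue, WT was N2 Bristol, and the labels give N2 Bristol as the strain of the mutants too. All animals were fed concentrated OP50 bacteria, and the study describes them as hermaphrodites, so the RNA mixed soma and germline. The labels number the libraries of a group 1 to 3 without saying that they came from separate cultures. The study states biological triplicate for its RNA-Seq, without describing how the replicates were separated. The p-values measure the spread between these samples, part of which may be technical.

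Each library held between 19248229 and 23575173 reads on genes. No pair of replicates looked like 1 library deposited again, since their reads were farther apart than counting alone gives (chi-square per degree of freedom 3.76 to 22.0). Of 7 marker lists for muscle, sperm, germline, oocyte and eggshell, intestine, hypodermis and molt, and neurons, every gene averaged at least 0.1 FPKM in the L4 groups. In day 3 adults, 5 of 11 sperm genes in *alh-6* mutants and 4 of 11 in WT averaged under 0.1 FPKM, as did 1 of 12 molt genes in *alh-6* mutants and 2 of 12 in WT.

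*alh-6* (WBGene00000112, chromosome II, minus strand, 1306240 to 1310133) encodes the enzyme that *lax105* impairs, and its RNA was present in mutant libraries of both stages. Its level was 60.9, 62.6 and 60.6 FPKM in *alh-6* L4 libraries 1, 2 and 3, against 68.4, 70.3 and 70.5 FPKM in WT L4 libraries. As day 3 adults, worms had 34.8, 32 and 34.0 FPKM in *alh-6* mutants and 33.7, 33.9 and 31.8 FPKM in WT. The L4 mutant libraries were all below the WT libraries, whereas the day 3 groups overlapped. Neither the labels nor the study give the lesion of *lax105*, and an RNA level near that of WT does not check the genotype label.

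*prdh-1* (WBGene00007197, chromosome IV, minus strand, 13868556 to 13876615), the other gene of proline breakdown, had the lowest L4 level of the 6. Its level was 2.85, 2.41 and 3.18 FPKM in *alh-6* day 3 adults and 2.29, 2.31 and 2.33 FPKM in WT day 3 adults. At L4 it was 12.4, 14.9 and 13.9 FPKM in *alh-6* mutants, against 13.2, 12.2 and 14.8 FPKM in WT. The genotypes overlapped at L4, and the 3 day 3 mutant libraries were all above the 3 WT libraries. Day 3 values rested on 101 to 135 reads per library in mutants and 98 to 110 in WT.

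*alh-13* (WBGene00011938, chromosome X, plus strand, 12782394 to 12787147), the P5C synthase gene, had 123, 111 and 130 FPKM in *alh-6* L4 libraries, against 56.8, 52.2 and 48.2 FPKM in WT L4 libraries. The day 3 level was 8.12, 8.05 and 7.83 FPKM in *alh-6* mutants and 7.18, 7.97 and 6.92 FPKM in WT. The 3 L4 mutant libraries were all well above the 3 WT libraries, and the day 3 groups overlapped.

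*oatr-1* (WBGene00015814, chromosome III, minus strand, 6394236 to 6396182), the ornithine aminotransferase gene, had the highest level of the 6 in all 4 groups. Its level was 186, 185 and 197 FPKM in *alh-6* L4 libraries and 152, 148 and 143 FPKM in WT L4 libraries. The day 3 level was 104.93, 104.98 and 110.22 FPKM in *alh-6* mutants, against 114.74, 112.68 and 112.80 FPKM in WT. The genotypes overlapped at neither stage, and the mutants were the higher group at L4 and the lower group in day 3 adults.

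The 2 P5C reductase genes had unlike patterns. *pycr-1* (WBGene00010924, chromosome X, plus strand, 12146832 to 12148771) had 107, 103 and 116 FPKM in *alh-6* L4 libraries and 70.1, 64.6 and 64.03 FPKM in WT L4 libraries. As adults the worms had only 2.90, 3.49 and 4.52 FPKM in *alh-6* mutants and 3.14, 3.79 and 2.77 FPKM in WT, where a library held 62 to 100 reads in mutants and 68 to 87 in WT. The mutants stood above WT at L4, and the genotypes overlapped in day 3 adults.

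*pycr-4* (WBGene00018904, chromosome IV, minus strand, 7476163 to 7477297) stayed between 33.7 and 41.6 FPKM in all 12 libraries. It had 37.5, 41.6 and 37.4 FPKM in *alh-6* day 3 adults and 35.9, 36.6 and 39.4 FPKM in WT day 3 adults. At L4 it had 35.3, 33.9 and 37.2 FPKM in *alh-6* mutants and 33.9, 33.7 and 36.1 FPKM in WT. Genotypes overlapped at both stages. Its exons share 20 bases with *slc-25A18.2* on the opposite strand, which averaged 17.7 FPKM, and whether counting used strand is not given in the sources used here.

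**Figure D1:**
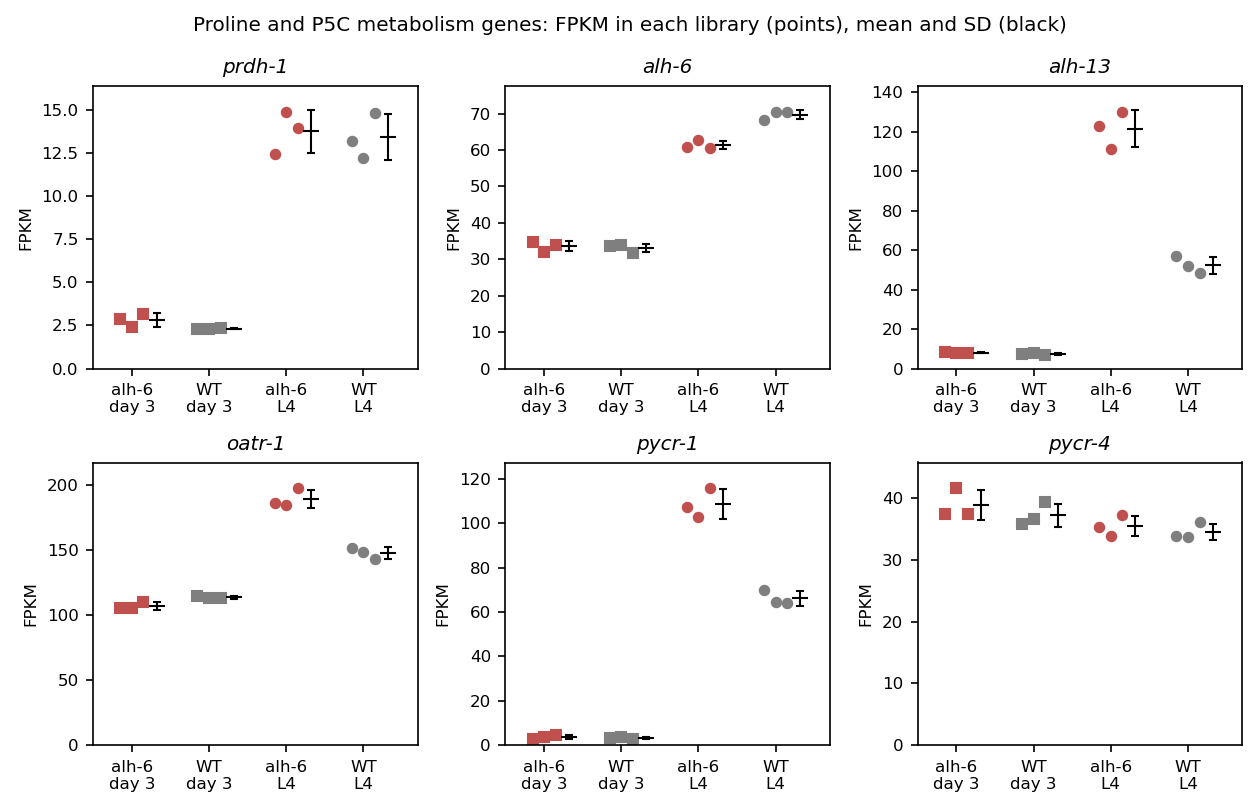
FPKM (y axis, from 0, a separate scale for each gene) of the 6 genes in each of the 12 libraries, with *alh-6* mutants in red, WT in grey, day 3 adults as squares, L4 as circles, and the mean and SD of 3 libraries in black. The mutant L4 libraries of *alh-13* (111 to 130 FPKM) and *pycr-1* (103 to 116 FPKM) sit above the WT L4 libraries (48.2 to 56.8 and 64.03 to 70.1 FPKM), while *pycr-4* stays between 33.7 and 41.6 FPKM throughout.

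At L4, the genes of P5C synthase (*alh-13*), of 1 P5C reductase (*pycr-1*) and of ornithine aminotransferase (*oatr-1*) rose in *alh-6* mutants. The other P5C reductase gene, *pycr-4*, and both genes of proline breakdown did not pass the test. limma on log2(FPKM + 0.1), with Benjamini-Hochberg adjustment over 13851 genes and a threshold of 0.05, called 3 of the 6, all higher, where it called 15.3% of all genes, 8.19% as higher and 7.15% as lower. The median log2 fold change of the 6 was 0.20, against −0.03 over all genes tested. Libraries of the groups did not overlap for 4 of the 6 genes, 3 with mutants above and 1 (*alh-6*) with mutants below, and for 37.6% of all genes, 17.3% with mutants above and 20.3% with mutants below.

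*alh-13* averaged 121 ± 9.41 FPKM in *alh-6* L4 mutants and 52.4 ± 4.31 FPKM in WT (SD, n = 3 each), a 2.32-fold difference. The difference was 1.21 on the log2 scale, with a standard error of 0.084 and an adjusted p of 0.00017 (limma), and 215 of the genes tested had a larger one. It was the only one of the 6 to change by at least 2-fold, as 3.33% of all genes did in either direction. *pycr-1* averaged 109 ± 6.67 FPKM in mutants and 66.2 ± 3.35 FPKM in WT (SD, n = 3 each), a difference of 0.71 on the log2 scale with a standard error of 0.070 (limma, adjusted p = 0.000417). *oatr-1* averaged 189 ± 6.97 FPKM in mutants and 147 ± 4.503 FPKM in WT (SD, n = 3 each), a difference of 0.36 with a standard error of 0.060 (limma, adjusted p = 0.00486). These 3 calls were made in each fit that left out 1 library, with adjusted p no higher than 0.0207.

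*alh-6* itself averaged 61.4 ± 1.11 FPKM in mutants and 69.7 ± 1.20 FPKM in WT (SD, n = 3 each). Its log2 fold change of −0.18 (95% interval −0.32 to −0.05) missed the threshold (limma, adjusted p = 0.0637), although the groups did not overlap. When all 12 libraries shared 1 fit, which estimates 1 spread for both stages, the same difference passed (limma, adjusted p = 0.0329). *prdh-1* had a log2 fold change of 0.04 (95% interval −0.21 to 0.285; limma, adjusted p = 0.850), so that a change of the size seen for *oatr-1* lay outside its interval. For *pycr-4* the log2 fold change was 0.04 (95% interval −0.12 to 0.19; limma, adjusted p = 0.751).

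Markers of other tissues also moved between the L4 groups. All 12 genes of the hypodermis and molt list, genes of the cuticle, the apical matrix and molting, were higher in mutants, with log2 fold changes from 1.06 (*sqt-3*) to 2.11 (*dpy-2*). Their summed level was 924 to 1013 FPKM in *alh-6* L4 libraries and 383 to 458 FPKM in WT L4 libraries. All 8 oocyte and eggshell genes were lower, with sums of 443 to 502 FPKM in mutants and 632 to 696 FPKM in WT. Of 11 sperm genes 6 were lower, and the list summed to 1265 to 1443 FPKM in mutants and 1679 to 1736 FPKM in WT. Of the 8 genes of each other list, 2 intestine and 2 neuron genes were higher, 2 germline genes lower and 0 muscle genes called (limma, with 1 muscle gene at an unadjusted p under 0.05 and 1 called by limma-voom). Log2 fold changes were positive for 5 of 8 intestine and 5 of 8 neuron genes. The intestine sums overlapped, at 8260 to 10757 FPKM in mutants and 8781 to 10475 FPKM in WT. The part of these shifts in the values of *alh-13*, *pycr-1* and *oatr-1* was not tested. In whole worms, fewer cells of a type and less RNA per cell cannot be told apart. L4 larvae of both genotypes were collected at the same set time after being placed on food. The study describes the development of the mutants as normal. Whether mutants and WT were equally far within L4 at collection was not tested, so the L4 differences may include a difference in developmental timing.

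In day 3 adults, none of the 6 genes passed the test between *alh-6* mutants and WT. limma called 0 of 6, where it called 6.32% of 10501 genes (2.14% higher, 4.18% lower, and 0.819% by at least 2-fold), with 0 of 6 at an unadjusted p under 0.05 and 0 of 6 by limma-voom on the recovered reads. The groups did not overlap for 2 of the 6, *prdh-1* (higher) and *oatr-1* (lower), and for 32.8% of all genes (8.28% higher and 24.5% lower). The median log2 fold change was 0.09 for the 6 and −0.08 over all genes tested.

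*prdh-1* averaged 2.81 ± 0.385 FPKM in *alh-6* day 3 adults and 2.31 ± 0.0231 FPKM in WT (SD, n = 3 each). Its log2 fold change of 0.26 had a 95% interval of −0.11 to 0.635 (limma, adjusted p = 0.343). *oatr-1* averaged 107 ± 3.04 FPKM in mutants and 113 ± 1.16 FPKM in WT (SD, n = 3 each), and its log2 fold change of −0.09 (95% interval −0.20 to 0.02; limma, adjusted p = 0.280) was close to the median of all genes. The 95% interval of *alh-13*, −0.11 to 0.35 around 0.12, did not reach the L4 difference. *pycr-1*, at 3.64 ± 0.821 FPKM in mutants and 3.23 ± 0.512 FPKM in WT (SD, n = 3 each), had the widest interval, −0.27 to 0.57 around 0.15. *alh-6* had a log2 fold change of 0.02 (95% interval −0.13 to 0.17) and *pycr-4* one of 0.06 (95% interval −0.10 to 0.22).

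Markers of muscle moved at this stage, with all 8 genes of the list higher in mutants and sums of 844 to 919 FPKM in *alh-6* day 3 adults against 568 to 623 FPKM in WT. The intestine list summed to 11730 to 12125 FPKM in *alh-6* day 3 adults and 7224 to 9264 FPKM in WT, without overlap, and 2 of its 8 genes were called higher. Its genes did not all move together. Their log2 fold changes ran from −0.41 to 0.63, with 5 of 8 positive and a median of 0.10. Of 8 neuron genes 2 were higher, with sums that overlapped (299.6 to 335 FPKM in mutants and 329 to 346 FPKM in WT). Of 5 molt genes tested, 2 were lower in mutants. The part of these shifts in the day 3 values of the 6 genes was not tested.

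**Figure D2:**
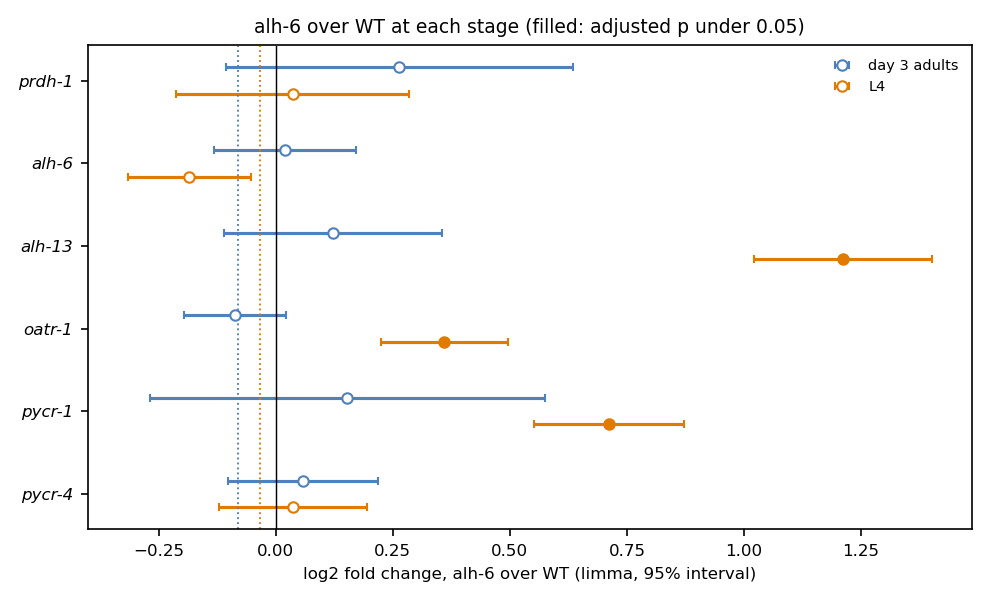
The log2 fold change between *alh-6* mutants and WT (x axis, positive where mutants are higher) of the 6 genes (y axis) in day 3 adults (blue) and at L4 (orange), with 95% intervals from limma, filled points for an adjusted p under 0.05 and dotted lines at the median of all genes tested. At L4 *alh-13* (1.21), *pycr-1* (0.71) and *oatr-1* (0.36) are filled, and in day 3 adults none is.

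Whether the effect of *lax105* differed between the stages was tested by an interaction term, fitted over all 12 libraries. It called 2 of the 6 genes, both negative, where it called 7.38% of 14497 genes, 3.37% as positive and 4.01% as negative. With a size of at least 1 on the log2 scale these were 1 of the 6 and 2.91% of all genes. A negative value means that the difference of mutants from WT was smaller, or more to the lower side, in day 3 adults than at L4. For *alh-13* the term was −1.09 (standard error 0.117; limma, adjusted p = 0.000347), from log2 fold changes of 0.12 in day 3 adults and 1.21 at L4. For *oatr-1* it was −0.45 (standard error 0.066; limma, adjusted p = 0.00211), from −0.09 in day 3 adults and 0.36 at L4.

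Tissue markers moved in this term as well. Of the 12 hypodermis and molt genes, 10 were called negative, as *alh-13* and *oatr-1* were, and the median of that list was −1.90. Positive calls were made for 6 of 8 muscle genes (median 0.58) and 6 of 8 oocyte and eggshell genes (median 0.40). They were also made for 2 of 8 germline genes (median 0.17) and 2 of 8 intestine genes. The intestine list was split, with 3 of 8 terms positive and a median of −0.09. The part of these shifts in the terms of *alh-13* and *oatr-1* was not tested.

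*pycr-1*, with 0.15 in day 3 adults and 0.71 at L4, had a term of −0.56 that did not pass (standard error 0.202; limma, adjusted p = 0.116). It passed without *alh-6* day 3 replicate 3, the library with the highest *pycr-1* level of that group (−0.72; limma, adjusted p = 0.0266), and when 1 and not 0.1 was added to the FPKM (−0.58; limma, adjusted p = 0.0392). The term of *alh-6* was 0.20 (limma, adjusted p = 0.122). It passed after rescaling of the libraries (0.29; limma, adjusted p = 0.0311) and by limma-voom (0.28; adjusted p = 0.0413). *prdh-1* (0.23; limma, adjusted p = 0.506) and *pycr-4* (0.02; limma, adjusted p = 0.926) did not pass.

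Within each genotype, day 3 adults were compared with L4 larvae. In WT, 5 of the 6 genes fell, where limma called 91.0% of 13674 genes, 51.5% as lower and 39.5% as higher. Changes of at least 2-fold were called for 4 of the 6 and for 64.3% of all genes. With most genes called, the count says little about these 6, and the sizes set them apart from each other. The median over all genes was −0.40 on the log2 scale, −0.17 after rescaling of the libraries, so changes are also given relative to it. That median and the balance of the calls rest on which genes were tested. When 1 WT L4 library was left out, a gene expressed only at L4 could no longer reach 1 FPKM in 3 libraries, and 10634 to 10639 genes were tested. The median was then 0.27 in each of these 3 fits, and more genes were called higher than lower (5327 and 3941 without replicate 1, 5343 and 3975 without replicate 2, 5377 and 4041 without replicate 3, against 5404 and 7044 with all libraries).

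In WT, *pycr-1* changed most and fell to 3.23 ± 0.512 FPKM in day 3 adults, against 66.2 ± 3.35 FPKM at L4 (SD, n = 3 each), a 20.5-fold lower level. This was −4.32 on the log2 scale with a standard error of 0.114 (limma, adjusted p = 3.3e-09), and −3.93 relative to the median. *alh-13* was at 7.36 ± 0.548 FPKM in day 3 adults and 52.4 ± 4.31 FPKM at L4 (SD, n = 3 each). *prdh-1* was at 2.31 ± 0.0231 FPKM in day 3 adults and 13.4 ± 1.31 FPKM at L4 (SD, n = 3 each). Their log2 fold changes were −2.82 for *alh-13* and −2.48 for *prdh-1*. *alh-6* fell less, to 33.2 ± 1.14 FPKM in day 3 adults against 69.7 ± 1.20 FPKM at L4 (log2 fold change −1.07). *oatr-1* had a log2 fold change of −0.38 (limma, adjusted p = 1.5e-05), which was 0.02 relative to the median of all genes. It lay below the median when 1 WT L4 library was left out, at −0.40 to −0.36 against a median of 0.27. *pycr-4* did not pass, with 37.3 ± 1.85 FPKM in day 3 adults and 34.6 ± 1.32 FPKM at L4 (log2 fold change 0.11, 95% interval −0.02 to 0.24; limma, adjusted p = 0.105).

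In *alh-6* mutants the same 5 genes fell, where limma called 89.7% of 13798 genes, 52.9% as lower and 36.9% as higher, and the median of all genes was −0.55 (−0.26 after rescaling). Here too the balance turned when 1 *alh-6* L4 library was left out, with medians of 0.18, 0.22 and 0.19 without replicates 1, 2 and 3. The calls were then 4968 higher and 4036 lower, 5033 higher and 3968 lower, and 4983 higher and 4065 lower, against 5085 and 7295 with all libraries. Changes of at least 2-fold were called for 3 of the 6 and for 66.3% of all genes. *pycr-1* was at 3.64 ± 0.821 FPKM in day 3 mutants and 109 ± 6.67 FPKM in L4 mutants (SD, n = 3 each), a 29.8-fold lower level. On the log2 scale this was −4.88 (limma, adjusted p = 1.9e-09). *alh-13* was at 7.998 ± 0.153 FPKM in day 3 mutants and 121 ± 9.41 FPKM in L4 mutants (SD, n = 3 each), a 15.2-fold lower level, with a log2 fold change of −3.91 (limma, adjusted p = 3.6e-10). *prdh-1* had a log2 fold change of −2.25, *alh-6* one of −0.87 and *oatr-1* one of −0.83. *pycr-4* had 0.13 (95% interval −0.05 to 0.31; limma, adjusted p = 0.153), although its day 3 mutant libraries were all above its L4 mutant libraries.

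The call of *pycr-4* depended on the scaling. After rescaling of the libraries it rose in day 3 adults of both genotypes (0.43 in *alh-6* mutants, limma adjusted p = 0.00105, and 0.34 in WT, limma adjusted p = 0.000563). It also rose by limma-voom (0.23 in *alh-6* mutants, adjusted p = 0.0171, and 0.14 in WT, adjusted p = 0.0443). The other 5 genes kept their direction and their calls under both, but rescaling moved the smaller changes by over 1.5 times. It gave *oatr-1* a log2 fold change of −0.52 in *alh-6* mutants and −0.14 in WT, and *alh-6* one of −0.56 in *alh-6* mutants. These stage comparisons share their libraries with the genotype comparisons and are no separate evidence on them.

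Tissue markers moved between the stages too. All 11 sperm genes and all 8 muscle genes were lower, and all 8 oocyte and eggshell genes higher, in day 3 adults of both genotypes. Also in both, 7 of 8 germline genes were higher and 1 lower, 3 of 8 intestine genes higher and 5 lower, and 2 of 8 neuron genes higher and 6 lower. Of the 12 molt genes, all 12 were lower in *alh-6* day 3 adults, whereas 11 were lower and 1 higher in WT day 3 adults. The molt list summed to 14.5 to 17.4 FPKM in *alh-6* day 3 adults and 924 to 1013 FPKM in *alh-6* L4 larvae. In WT it summed to 21.9 to 24.6 FPKM in day 3 adults and 383 to 458 FPKM in L4 larvae. The part of these shifts in the stage changes of the 6 genes was not tested.

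**Figure D3:**
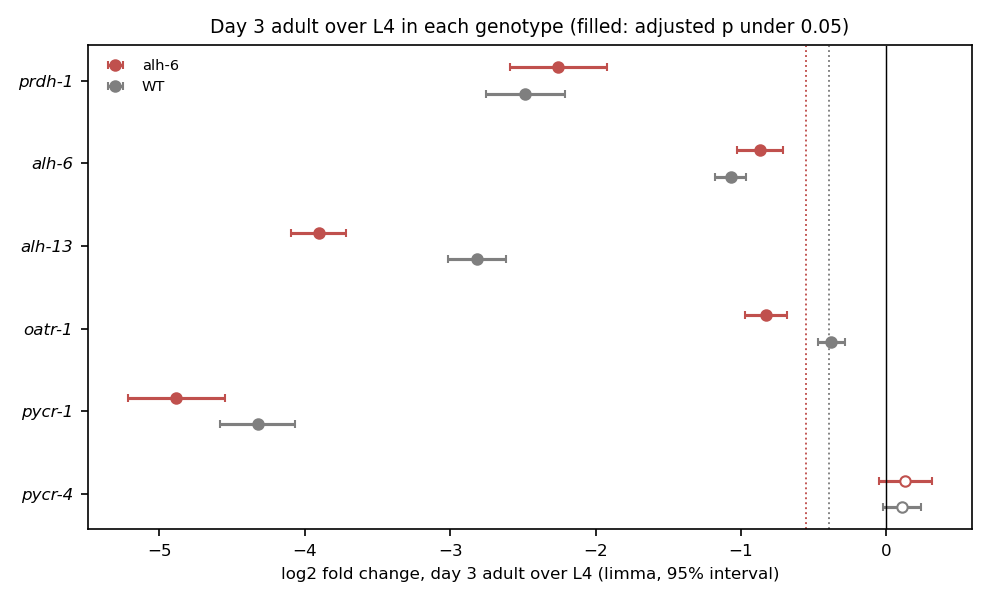
The log2 fold change of day 3 adults over L4 larvae (x axis) of the 6 genes (y axis) in *alh-6* mutants (red) and WT (grey), with 95% intervals from limma, filled points for an adjusted p under 0.05 and dotted lines at the median of all genes tested (−0.55 in *alh-6* mutants and −0.40 in WT). *pycr-1* is farthest to the left (−4.88 and −4.32), *oatr-1* is at −0.83 and −0.38, and *pycr-4* lies just right of 0 with open points.

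The order of the 4 groups by level differed among the genes. *alh-6* was highest in WT L4, then *alh-6* L4, with both day 3 groups overlapping below. *alh-13*, *pycr-1* and *prdh-1* shared the order *alh-6* L4, WT L4, *alh-6* day 3, WT day 3, but neighbours overlapped at L4 for *prdh-1* and in day 3 adults for *alh-13* and *pycr-1*. *oatr-1* ran from *alh-6* L4 through WT L4 and WT day 3 to *alh-6* day 3 with no overlap of neighbours. *pycr-4* was highest in *alh-6* day 3 adults, and every neighbouring pair in its order overlapped.

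The 6 genes together summed to 194 ± 3.21 FPKM in *alh-6* day 3 adults, 197 ± 0.627 FPKM in WT day 3 adults, 530 ± 22.8 FPKM in *alh-6* L4 larvae and 384 ± 9.16 FPKM in WT L4 larvae (SD, n = 3 each). At L4 *alh-13* made up 22.9% of this sum in *alh-6* mutants and 13.6% in WT, and *alh-6* 11.6% in mutants and 18.2% in WT. *oatr-1* made up 55.1% of the sum in *alh-6* day 3 adults and 57.6% in WT day 3 adults, and *pycr-4* 20.1% in *alh-6* day 3 adults and 18.9% in WT day 3 adults. *pycr-1*, at 20.5% of the sum in *alh-6* L4 mutants and 17.2% in WT L4 larvae, was under 2% in both day 3 groups (1.87% in mutants and 1.64% in WT). Of this pair of P5C reductase genes, *pycr-4* was the more abundant in day 3 adults and *pycr-1* at L4, in both genotypes.

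Levels set beside each other between genes depend on the gene lengths behind the FPKM. For *alh-6* that length was 1775 bases, against 2511 bases of annotated exons, whereas for *prdh-1* it was 2095 against 2093 bases. With annotated lengths *alh-6* would be at 49.3 FPKM in WT L4 larvae, below *alh-13* (52.3) and not above it (69.7 against 52.4 FPKM with the deposited lengths). Fold changes between groups do not depend on the length.

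The ratio of *prdh-1* to *alh-6* FPKM within a library sets the RNA of the enzyme that forms P5C from proline against that of the enzyme that oxidizes P5C to glutamate. P5C reductases also use P5C, and in mutants *alh-6* RNA comes from a loss-of-function allele, so the ratio does not measure a balance of P5C. It was 0.0819, 0.0753 and 0.0933 in *alh-6* day 3 adults and 0.0679, 0.0680 and 0.0733 in WT day 3 adults. At L4 it was 0.204, 0.238 and 0.230 in *alh-6* mutants, against 0.193, 0.174 and 0.210 in WT. The ratio was 1.19-fold higher in day 3 mutants than in day 3 WT with no overlap (exact permutation test, two-sided, p = 0.1, the smallest that 3 against 3 libraries allow). At L4 the groups overlapped (1.17-fold; exact permutation test, two-sided, p = 0.2). The day 3 ratio was 0.372 times the L4 ratio in *alh-6* mutants and 0.363 times in WT, with no overlap in either (exact permutation tests, two-sided, p = 0.1 for both). Adjustment over these 4 tests could not bring any under 0.05.

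Other genes that handle proline, ornithine or glutamate were described from a list of 22, of which 20 were matched by symbol. The list holds glutamine synthetases, glutaminases, glutamate dehydrogenase, arginase, ornithine decarboxylase, prolyl-tRNA synthetases and peptidases that cut at proline. At L4, 2 of 20 rose and 4 fell in *alh-6* mutants (limma), beside 8.19% of all genes higher and 7.15% lower, and the median of the list was −0.03, as over all genes. *odc-1*, ornithine decarboxylase of polyamine synthesis, averaged 54.5 ± 9.30 FPKM in mutants and 39.3 ± 2.23 FPKM in WT (SD, n = 3 each; log2 fold change 0.46, limma adjusted p = 0.0357). *pcp-3*, a prolyl carboxypeptidase-like gene, averaged 106 ± 5.87 FPKM in mutants and 80.7 ± 8.69 FPKM in WT (SD, n = 3 each; log2 fold change 0.40, limma adjusted p = 0.017).

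The 4 genes that fell at L4 were 3 glutamine synthetase genes and arginase. *gln-5* averaged 31.1 ± 1.70 FPKM in mutants and 43.4 ± 1.43 FPKM in WT (SD, n = 3 each; log2 fold change −0.48, limma adjusted p = 0.00246). *gln-6* had 80.3 ± 5.07 FPKM in mutants and 104 ± 8.99 FPKM in WT (SD, n = 3 each; log2 fold change −0.37, limma adjusted p = 0.0157). *argn-1*, which forms ornithine from arginine, and *gln-2* had log2 fold changes of −0.31 (limma, adjusted p = 0.0171) and −0.23 (limma, adjusted p = 0.0496). The mitochondrial glutamate dehydrogenase gene *gdh-1* had −0.12 and did not pass (limma, adjusted p = 0.223).

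**Figure D4:**
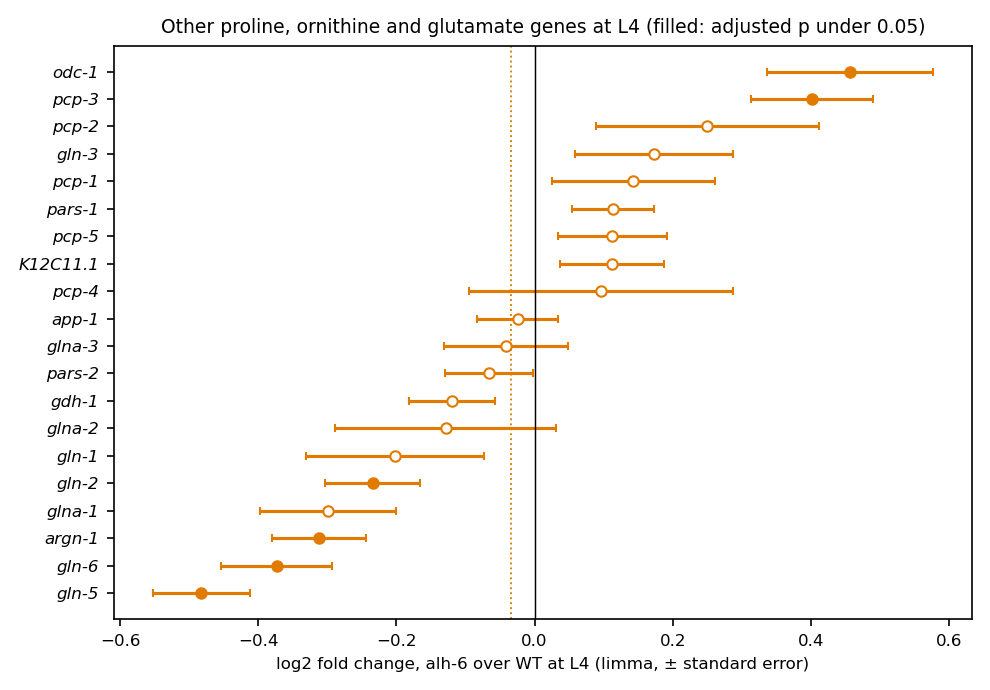
The log2 fold change between *alh-6* mutants and WT at L4 (x axis, positive where mutants are higher, bars for the standard error) of the 20 other proline, ornithine and glutamate genes (y axis), with filled points for an adjusted p under 0.05 and a dotted line at the median of all genes tested. The genes lie between −0.48 (*gln-5*) and 0.46 (*odc-1*), a narrower range than the 1.21 of *alh-13*.

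Between day 3 genotypes, limma called 0 of the 19 listed genes that were tested, beside 6.32% of all genes. At an unadjusted p under 0.05 (limma) there were 6 of 19, a count for which the share over all genes is not given here. By limma-voom 1 was called, the proline dipeptidase-like gene *K12C11.1* (0.34; adjusted p = 0.0279), beside 769 of 10501 genes. Between stages, 3 of 20 rose and 16 fell in *alh-6* mutants, and 3 rose and 15 fell in WT, beside the shares of all genes given for those comparisons. *gln-5* and *gln-6* rose most, by 3.15 and 3.11 on the log2 scale in *alh-6* mutants and by 2.72 and 2.78 in WT. *gln-2* and *pcp-4* fell most. *gln-2* was at 0.0822 FPKM in day 3 mutants against 54.3 FPKM in L4 mutants, and at 0.0377 FPKM in day 3 WT against 63.9 FPKM in L4 WT, where its log2 fold change depends on the pseudocount. *pcp-4* was at 1.47 ± 0.169 FPKM in day 3 mutants and 43.8 ± 8.98 FPKM in L4 mutants, and at 1.17 ± 0.252 FPKM in day 3 WT and 41.1 ± 8.63 FPKM in L4 WT (SD, n = 3 each).

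The pattern of each of the 6 genes over the 12 libraries was set against that of 9123 genes that averaged 5 FPKM or more over all libraries, by Pearson's r of log2(FPKM + 0.1). The 12 points share 4 groups and, for most genes, 1 large difference between stages, so that high values were common. *alh-6*, *prdh-1*, *pycr-1* and *alh-13* each had r over 0.95 with 2224 to 2748 genes, *oatr-1* with 296 and *pycr-4* with 0. Among *alh-6*, *prdh-1*, *pycr-1*, *oatr-1* and *alh-13*, r ran from 0.848 (*alh-6* with *oatr-1*) to 0.988 (*prdh-1* with *pycr-1*). With *pycr-4* it was negative for all of them, from −0.732 to −0.598.

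The genes most like *alh-6* were *Y54G2A.11* (r = 0.998) and *skpo-3* (r = 0.997), and those most like *prdh-1* were *nape-2* and *D2092.4* (r = 0.998 for both). For *pycr-1* they were the aquaporin gene *aqp-2* (r = 0.999) and *F09B12.3* (r = 0.998), and for *alh-13* *Y71G12B.25* and *gly-8* (r = 0.998 for both). *oatr-1* was most like *dao-2* (r = 0.991), which averaged 75.8 FPKM in *alh-6* L4 larvae and 22.0 FPKM in WT L4 larvae, and *C06E7.4* (r = 0.990). *pycr-4* had no close match, with *elpc-2* (r = 0.869) and *pdxk-1* (r = 0.854) at the top.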

How the data were processed

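RNA-Seq libraries of 12 whole-worm samples were analysed. FPKM values for every gene were deposited by the authors, scaled to gene length and to reads on genes. They also deposited a normalized signal for each stage, the mean read count of a group after division by size factors. Columns with the authors' fold changes and p-values were not used. The submitters' processing notes name TopHat2 2.0.12, Bowtie2 2.2.3, HTSeq 0.6.1, DESeq 1.18.0, CASAVA 1.8 and the build ce11, while strand handling and the treatment of multiply aligned reads are not given in the sources used here. Symbols and positions came from the WBcel235 annotation, release 115, which held 46364 of 46726 identifiers.

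Joining FPKM with the group means gave whole reads for 100% of values (within 0.01), hence the depth. Groups were compared with limma 3.58.1 (R 4.3.3, trend and robust) on log2(FPKM + 0.1), over genes that reached an FPKM of 1 in 3 or more of the libraries fitted, with Benjamini-Hochberg adjustment, a threshold of 0.05 and no minimum fold change. A fold change on this scale understates the change of low genes. Genotypes were compared within stages and stages within genotypes, and 1 fit of all 12 libraries tested the genotype by stage term. Ratios were tested by exact permutation. Alternatives were pseudocounts of 1 and 0.01, no filter, rescaling of libraries by median ratios, limma-voom on the recovered reads, 1 common fit of the 12 libraries, a replicate block, a minimum log2 fold change of 1, and each library left out in turn. The fits were tested on simulated data, with known changes set in genes above a minimum level. This does not cover changes of low genes or shifts in tissue makeup. All 6 genes were named in every comparison, with the 2 largest called rises and falls of the pathway list and the 2 genes most like each member. The others named were chosen after their values were seen. Members and lists were chosen with earlier results of these data known. Of the pathway list, *pycr-2* and *pycr-3* were not matched and are not analysed here. No sequence was used here.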

Additional observations from a re-analysis of the deposited data

Results flagged for a closer look

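The effect of *alh-6(lax105)* differed between the stages, by the genotype by stage term over all 12 libraries (limma, Benjamini-Hochberg adjusted), for 2 of the 6 proline and P5C metabolism genes, where it called 7.38% of all genes (3.37% positive and 4.01% negative). For *alh-13* the log2 fold change of mutants over WT was 1.09 smaller in day 3 adults than at L4 (term −1.09, adjusted p = 0.000347), and all 3 L4 mutant libraries were above all 3 WT libraries. For *oatr-1* the term was −0.45 (adjusted p = 0.00211). Its mutant libraries were all above WT at L4, as for 17.3% of all genes, and all below WT in day 3 adults, as for 24.5%. The day 3 difference of *oatr-1* (−0.09) was not called (limma, adjusted p = 0.280). It was −0.01 after rescaling of the libraries and −0.01 by limma-voom. The interaction calls of both genes held in each fit that left out 1 library, where adjusted p was at most 0.00137 for *alh-13* and 0.00847 for *oatr-1*. Of the 12 hypodermis and molt markers, 10 were called negative in the same term (median −1.90), and their part in it was not tested.

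Of the 20 other proline, ornithine and glutamate genes, 3 met the same criterion, beside the 7.38% of all genes. *argn-1* had a term of 0.50 (adjusted p = 0.0238), with log2 fold changes of 0.19 in day 3 adults and −0.31 at L4. *gln-5* had a term of 0.43 (adjusted p = 0.00429), with −0.06 in day 3 adults and −0.48 at L4. *pars-1*, the cytosolic prolyl-tRNA synthetase gene, had a term of −0.28 (adjusted p = 0.0355), with −0.16 in day 3 adults and 0.11 at L4. By limma-voom *argn-1* (0.57, adjusted p = 0.00724) and *gln-5* (0.50, adjusted p = 0.000982) passed as well, and *pars-1* (−0.20, adjusted p = 0.112) did not. It also called *gdh-1* (0.33, adjusted p = 0.0329) and *gln-6* (0.41, adjusted p = 0.0125), so that its 4 calls in the list were all positive. Over all 14497 genes, limma-voom called 853 positive and 430 negative in this term, so most of its calls were positive there too.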

How the results depend on the processing

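Of 450 refits of the 30 results for single genes (6 genes in 5 comparisons), 426 kept direction and call. Only small uncalled differences changed sign, all on leaving out 1 library: *prdh-1* at L4 (−0.029 to 0.109), *alh-6* (−0.0101 to 0.0532) and *pycr-1* (−0.012 to 0.2995) in day 3 adults, and the interaction term of *pycr-4* (−0.0291 to 0.0619). A minimum log2 fold change of 1 left 1 of the 6 genes called at L4, 3 between stages in *alh-6* mutants and 1 in the interaction. Without 1 library the interaction called 2 to 3 of the 6, and the other comparisons called the same number each time.

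The background moved more. With that minimum fold change, 461 of 2124 genes stayed called at L4, 86 of 664 in day 3 adults and 422 of 1070 in the interaction. Without the filter on low values 1393 genes were called at L4 and 243 in day 3 adults, and a pseudocount of 1 gave 1649 in the interaction. Leaving out 1 library gave 1347 to 1750 genes at L4 (1347, 1395 and 1401 without WT replicates 1, 2 and 3), 147 to 1233 in day 3 adults (147 without WT replicate 3, 1233 without *alh-6* replicate 3, and 211, 304 and 278 without WT replicates 1 and 2 and *alh-6* replicate 2), and 695 to 1051 in the interaction (695 without WT L4 replicate 3). Day 3 calls were 225 higher and 439 lower, but 296 higher and 153 lower after rescaling and 514 higher and 255 lower by limma-voom. Interaction calls were 488 positive and 582 negative, but 774 and 453 after rescaling and 853 and 430 by limma-voom. At L4, 1134 were higher and 990 lower, and 981 higher and 1319 lower with all 12 libraries in 1 fit.

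Same-numbered libraries of different groups showed no strong shared deviation (correlations −0.0691 to 0.139, against −0.104 to 0.11 for different numbers). The main fits used no pairing, and whether same-numbered samples were handled together was not tested. With the replicate number as a block, 428 genes were called in day 3 adults and no call among the 6 changed. With 3 pairs the exact permutation tests of the ratio cannot go below p = 0.25.

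In the day 3 comparison of genotypes, *pycr-1* and *prdh-1* rested on 62 to 135 reads per library and had the widest intervals of the 6 in that comparison.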
